A study of Mus musculus with 99 samples.

Results

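Does skeletal muscle of the calf age in the same way as muscle of the thigh? This was asked within numbers, using every sedentary number with a library from gastrocnemius and a library from quadriceps. For each gene, the log2 difference gastrocnemius minus quadriceps was compared between 18 and 10 months. The main test was an edgeR fit of the counts with the numbers as blocks, and limma was also run on the differences themselves. There were 19 pairs of libraries, 10 at 10 months and 9 at 18 months. They used 38 of the 97 libraries in the count table (99 samples are labelled). All mice were wild-type C57BL/6 males that were perfused with saline and had not been exercised, and RNA with a poly(A) tail was sequenced from tissue frozen after removal. A number such as 5.2 is shared by libraries of several tissues, but nothing in the labels states that it stands for an animal, and no number occurs at both ages, so a litter or cage behind the numbers cannot be told apart from age. Where same-numbered libraries are not from 1 mouse, the p-values measure only the spread between these pairs.

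Gastrocnemius is the main muscle of the calf and quadriceps that of the front of the thigh. Both are mixed but mostly fast muscles, made of fibres that differ in their myosin heavy chain. A piece of whole muscle also holds fat cells between the fibres, nerve twigs with Schwann cells, vessels, tendon and connective tissue. Fat cells store triglyceride and secrete adipokines, and they make fatty acids from citrate. In that route, Slc25a1 exports citrate from mitochondria, Acly splits it to acetyl-CoA, Acaca makes malonyl-CoA, Fasn builds palmitate, Elovl6 lengthens palmitate to stearate and Scd1 desaturates the product. In whole tissue, fewer cells of a type and less RNA per cell cannot be told apart.

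Total counts ran from 29.06 to 45.02 M per library, the smallest being quadriceps 5.2 at 18 months. The muscle genes Acta1, Ckm and Mb were abundant in all 38 libraries, at no less than 21500, 9060 and 877.5 CPM (counts scaled to library size with TMM factors). Several libraries stood apart. Quadriceps 5.2 and 3.2 had the highest share of mitochondrial mRNA, 19.18% and 18.24%, where the other quadriceps libraries did not exceed 13.82%. Gastrocnemius 2.2 had the lowest share, 7.153%. In both muscles, number 3.1 had the lowest summed level of the collagen and matrix list, 776.9 and 718 CPM. Counts of called genes that moved by over 1.5 times without 1 of these numbers are given with that value.

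**Figure D1:**
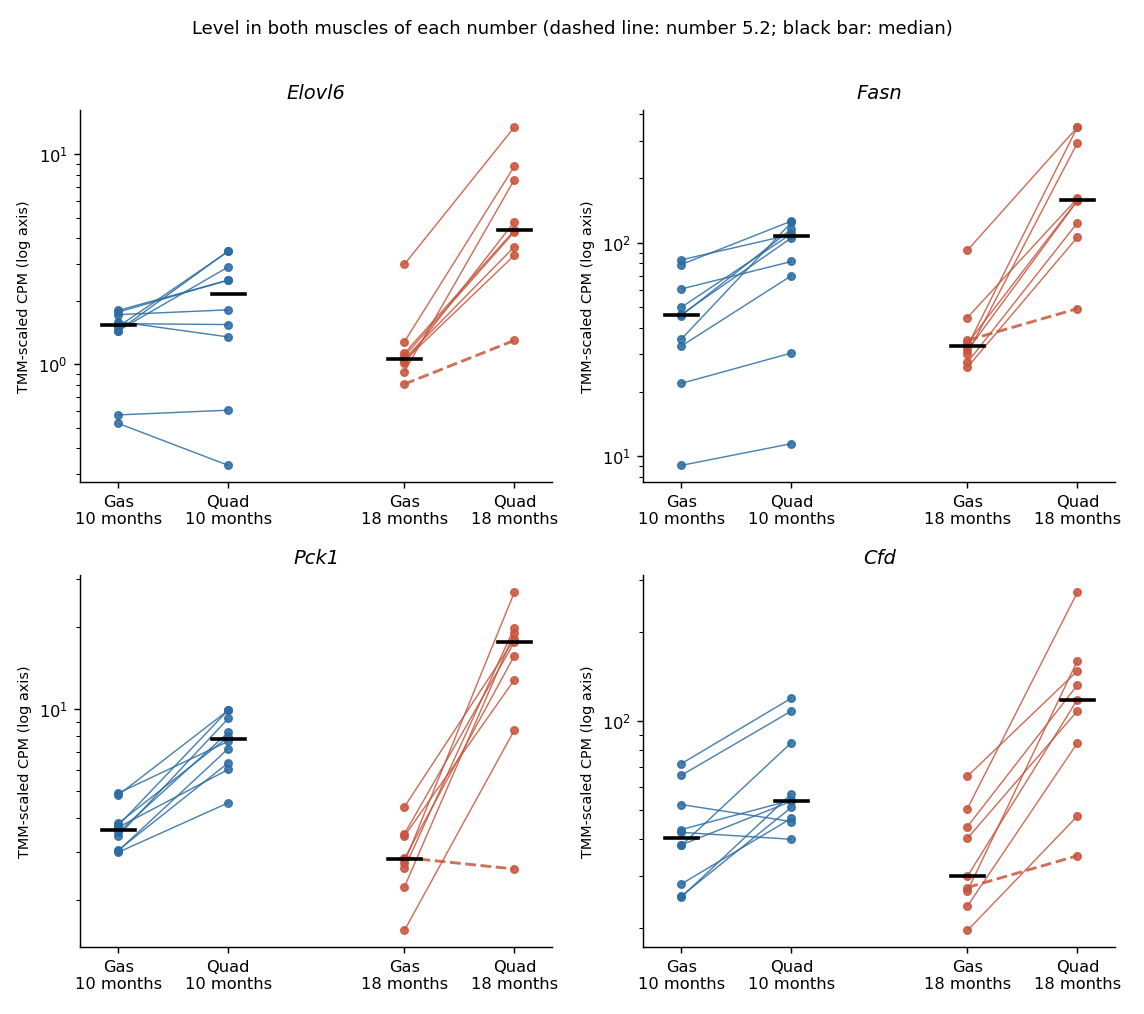
Level of 4 genes in gastrocnemius (Gas) and quadriceps (Quad), in TMM-scaled CPM on a log axis. Each line joins the libraries of 1 number, blue at 10 months (10 pairs) and red at 18 months (9 pairs), the dashed line is number 5.2 and black bars are medians. At 18 months the lines rise more steeply towards quadriceps than at 10 months, except for number 5.2 in Fasn, Pck1 and Cfd. For Elovl6 the difference of 5.2 lies below the 10-month median but inside the range of the younger pairs.

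The muscle difference itself changed with age in 1 of 15050 genes tested (0.00664% called, adjusted p under 0.05 in the paired edgeR fit). That gene was Elovl6, the elongase that lengthens palmitate. The genes with the next smallest p-values included others of fatty acid synthesis and of fat cells, with estimates lower in gastrocnemius relative to quadriceps at 18 months, but none of them passed. At an unadjusted p under 0.05 there were 165 genes higher (1.1%) and 431 lower (2.86%), where 752 in all would be counted by chance. Of all genes, 48.3% were fitted above 0. This share and the 1.1% and 2.86% are those to set beside the counts of list members that follow. The median absolute change over all genes was 0.0612 on the log2 scale. So for nearly all genes the pairs gave no call, which does not show that both muscles aged alike.

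Elovl6 lies on chromosome 3 at 129532355 to 129638495 on the plus strand (GRCm38, GENCODE M21). A predicted gene, Gm35986, overlaps it on the opposite strand, and no source used here says whether the counting used strand. Reads of overlapping pairs such as these, and of Adrb3, Kcnab1, S100b, Pln, Nnat and Myh7 with their opposite-strand neighbours, may not be told apart. The same holds for other genes named here, among them Nhs, Pus3, Tbx15, Hoxd8, Aldh1a2, Lrtm2, Prg4, Pfkfb3, Sh2d4a, Ppargc1a, Myh1 and Myh2. Fasn lies on chromosome 11 at 120805846 to 120824547 on the minus strand, with no gene opposite. Because Elovl6 and Fasn act in sequence in the route to stearate, 200 bases of each promoter upstream of the start of transcription are shown (RefSeq, GRCm38.p6). The stretches stop short of the start, and the bases next to it were not searched. The first is at chr3:129532136-129532335, plus strand, and the second at chr11:120824598-120824797, minus strand. Capitals mark matches to the CCAAT box (CCAAT), searched on both strands with matches allowed to overlap.
Elovl6: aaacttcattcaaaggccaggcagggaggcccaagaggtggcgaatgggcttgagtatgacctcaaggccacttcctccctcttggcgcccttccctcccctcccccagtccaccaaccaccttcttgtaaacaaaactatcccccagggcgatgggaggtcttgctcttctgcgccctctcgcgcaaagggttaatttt
Fasn: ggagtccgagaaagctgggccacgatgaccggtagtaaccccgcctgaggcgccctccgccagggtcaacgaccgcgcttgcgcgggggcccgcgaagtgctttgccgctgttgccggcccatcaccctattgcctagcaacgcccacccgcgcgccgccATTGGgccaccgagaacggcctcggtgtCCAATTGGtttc
The Fasn stretch held 3 CCAAT matches, 2 of which overlap on opposite strands, and the Elovl6 stretch held none. Neither held the E box CACGTG or the sterol response element in the form TCACNCCAC. Among 32851 RefSeq promoters cut to the same 200 bases, 28.4% held CCAAT, 4.34% CACGTG and 0.81% TCACNCCAC.

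Elovl6 was a low-level transcript in both muscles. In gastrocnemius it had 0.523 CPM at the lowest, 1.54 at the median and 1.81 at the highest at 10 months, and 0.805, 1.06 and 2.99 CPM at 18 months. In quadriceps the corresponding levels were 0.330, 2.17 and 3.47 CPM at 10 months, and 1.3, 4.35 and 13.5 CPM at 18 months. In quadriceps 7 of 9 libraries at 18 months were above every library of 10 months, while in gastrocnemius 1 of 9 was, and 5.2 had the lowest quadriceps level of its age. The log2 difference per pair ran from -1.26 to 0.64 at 10 months, with a median of -0.28, and from -3.02 to -0.68 at 18 months, with a median of -1.95. Every pair at 18 months lay below the median of 10 months, and only 5.2 lay inside the range of the younger pairs.

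In the paired fit, the difference for Elovl6 was -0.49 ± 0.172 (SE, n = 10 pairs) at 10 months and -2.11 ± 0.167 (SE, n = 9 pairs) at 18 months. The change was -1.62 ± 0.241 (SE, edgeR, adjusted p = 0.00744). Within muscles, Elovl6 was 1.49 ± 0.324 log2 units higher at 18 months in quadriceps (SE, edgeR, adjusted p = 0.0286). In gastrocnemius the same contrast gave -0.16 ± 0.354 (SE, edgeR, adjusted p = 0.935). Without number 3.1 the change was -1.57 (edgeR, adjusted p = 0.0149), and it passed in each of the 19 fits that left out 1 number. It did not pass when the numbers were not used as blocks (-1.65, edgeR, adjusted p = 1) when limma was run on the 19 differences (-1.65, adjusted p = 0.188), or when exercised pairs were added to the edgeR fit (-1.62, adjusted p = 0.814).

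Fasn, the enzyme that builds palmitate, was far more abundant and had a like pattern that did not pass. Its quadriceps level was 11.5 CPM at the lowest, 107 at the median and 126 at the highest at 10 months, and 49.2, 158 and 348 CPM at 18 months. Its gastrocnemius level was 9.07, 45.9 and 83.2 CPM at 10 months, and 26.1, 32.8 and 92.2 CPM at 18 months. The pairs ran from -1.81 to -0.34 at 10 months and from -3.41 to -0.49 at 18 months. At 18 months 8 of 9 lay below every pair at 10 months. The ranges overlapped through 5.2, the one 18-month pair above the younger median. The change was -1.3 ± 0.265 (SE, edgeR, adjusted p = 0.106).

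The other genes of the route gave changes of the same sign. For Scd1 the change was -1.03 ± 0.226, for Acly -0.65 ± 0.167 and for Acaca -0.55 ± 0.148 (SE), with edgeR adjusted p-values of 0.106, 0.245 and 0.296. The citrate exporter Slc25a1 gave -0.87 ± 0.187 (SE, edgeR, adjusted p = 0.106). Thrsp, a nuclear protein that promotes fatty acid synthesis, gave -0.71 ± 0.148 (SE, edgeR, adjusted p = 0.106). Of the 18 tested genes of the lipid synthesis list, 16 were fitted below 0, with a median of -0.23 against -0.00345 over all genes, and 9 had an unadjusted p under 0.05. At that p 2.86% of all genes were lower. Other members lay near 0. Srebf1, which encodes the transcription factor SREBP-1, was at -0.05, and Acacb, the acetyl-CoA carboxylase of the mitochondrial surface, at -0.03. In quadriceps, Elovl6 and Acaca rose with age (0.59 for Acaca, edgeR, adjusted p = 0.0471). Dgat2, an enzyme of triglyceride assembly, fell in gastrocnemius by 0.57 (edgeR, adjusted p = 0.00333). Its estimate was below 0 in quadriceps too, at -0.32 (edgeR, adjusted p = 0.136), and its paired change was -0.24. Me1, which makes NADPH for the pathway, was at 0.04, Gpam, the first enzyme of triglyceride assembly, at 0.02, and Elovl5, which lengthens polyunsaturated fatty acids, at -0.01.

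Pck1, which makes phosphoenolpyruvate and in fat cells serves glycerol supply, had the 4th smallest p of all genes, after Elovl6, A530016L24Rik and Lgals12, a galectin of fat cells. The last 2, named after their values were seen, gave changes of -1.27 and -1.03 (edgeR, adjusted p = 0.0579 for each). In quadriceps it had 4.54, 7.78 and 9.94 CPM at 10 months and 2.6, 17.6 and 26.8 CPM at 18 months (lowest, median, highest). In gastrocnemius it had 2.99, 3.62 and 4.93 CPM at 10 months and 1.55, 2.84 and 4.39 CPM at 18 months. At 18 months 8 of 9 pairs, from -3.28 to -1.90, lay below every pair at 10 months, whose lowest was -1.42, and 5.2 lay above them all at 0.14. The change was -1.3 ± 0.255 (SE, edgeR, adjusted p = 0.105), and Pck1 was 1.03 ± 0.212 higher at 18 months in quadriceps (SE, edgeR, adjusted p = 0.0208).

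**Figure D2:**
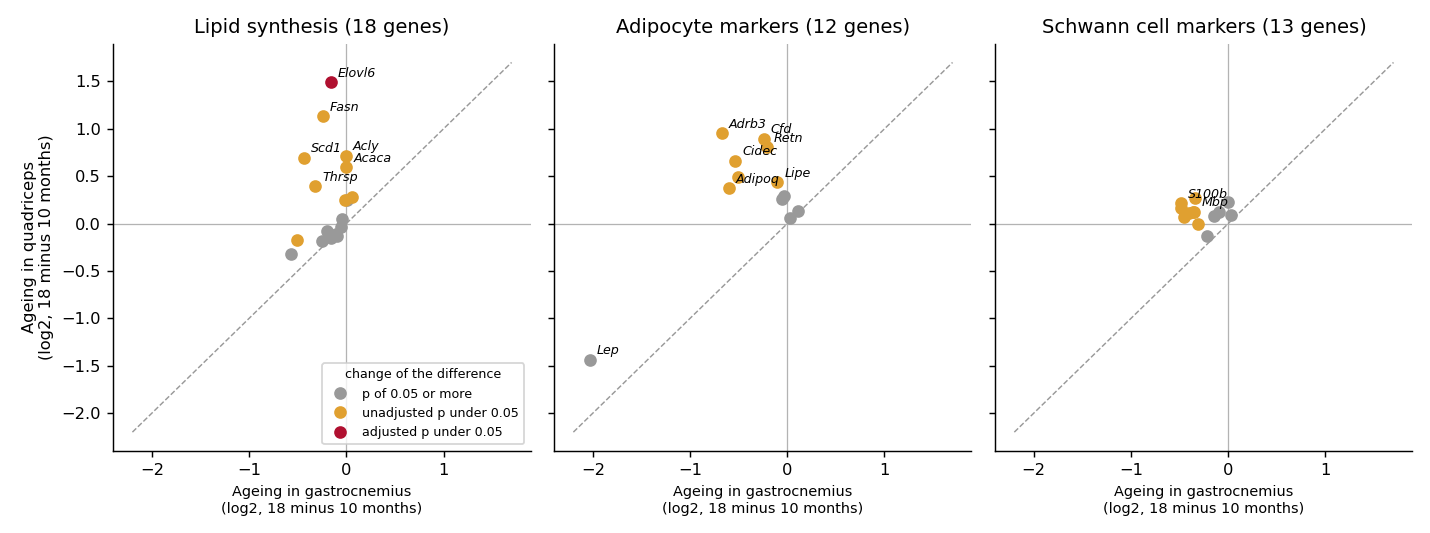
Fitted change from 10 to 18 months in gastrocnemius (horizontal axis) and quadriceps (vertical axis), both log2, for the members of 3 lists. Points above the dashed line of equal change have a difference that moved towards quadriceps. Elovl6, at -0.16 and 1.49, is the only member called, and 7 of 12 adipocyte and 8 of 13 Schwann cell markers have an unadjusted p under 0.05. At that p 2.86% of all genes were lower.

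All 12 adipocyte markers were fitted below 0 and none was called, with a median change of -0.711 and 7 at an unadjusted p under 0.05 (2.86% of all genes were lower at that p). Markers of 1 cell type can move together, so the 12 are not independent. Their median ageing estimate was -0.228 in gastrocnemius and 0.407 in quadriceps. Adrb3, the beta-3 adrenergic receptor of fat cells, gave -1.54 ± 0.308 (SE, edgeR, adjusted p = 0.106). Its pairs ran from -3.07 to -0.85 at 10 months and from -4.51 to -1.79 at 18 months. The adipokine genes Retn, Cfd and Adipoq (resistin, adipsin and adiponectin) gave -0.97, -1.04 and -0.88. The lipid droplet genes Cidec and Plin1 gave -1.05 and -0.87, and Lipe, the hormone-sensitive lipase, -0.51. Plin4, at -0.03, and the brown fat gene Cidea, at -0.06, were near 0.

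Cfd had 39.9, 53.8 and 120 CPM in quadriceps at 10 months and 35.1, 118 and 273 CPM at 18 months (lowest, median, highest). In gastrocnemius it had 25.4, 40.1 and 71.8 CPM at 10 months and 19.6, 29.9 and 65.1 CPM at 18 months. The quadriceps libraries of 18 months thus spanned the whole range of 10 months and reached beyond it, with 9.2 highest and 5.2 lowest. Lep, the leptin gene, differed from the other adipokines, since it fell with age in gastrocnemius by 2.03 ± 0.413 (SE, edgeR, adjusted p = 0.0170) and was estimated at -1.44 in quadriceps (adjusted p = 0.103). Its paired change was -0.55 ± 0.325 (SE, edgeR, adjusted p = 1).

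The summed level of the 12 adipocyte markers ran from 386.8 to 693.1 CPM in quadriceps at 10 months and from 355.2 to 869.5 CPM at 18 months. In gastrocnemius it ran from 308.3 to 599.1 CPM and from 304.1 to 455.4 CPM. The highest sum at 10 months was that of number 3.1 in both muscles. Next came 513.6 CPM in quadriceps 2.3 and 457.9 CPM in gastrocnemius 1.2. Plin4 ran from 4196 to 18959 counts and Adipoq from 206 to 1448, so the sum rests more on Plin4 than on Adipoq. None of the 12 markers was at 0 counts in any library, and Adipoq was between 5.122 and 42.66 CPM in every library. Over the 9 pairs at 18 months, the Fasn difference went with the Adipoq difference (Pearson r = 0.939, exact permutation p = 0.000209, adjusted 0.000838, Spearman rho = 0.9, exact permutation p = 0.00203, adjusted 0.00811). Leaving out 5.2 and 8.2, the 2 pairs farthest from the median of Adipoq, r was 0.774. For Elovl6 at 18 months r was 0.881 (exact permutation p = 0.00344, adjusted 0.00688) and rho 0.667 (exact permutation p = 0.0589, adjusted 0.0785), and r was 0.636 without the same pairs (exact permutation p = 0.119), so the relation rests on them.

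Over the 10 pairs at 10 months, r between Fasn and Adipoq was -0.0493 (permutation p = 0.89, adjusted 0.89) and rho -0.139 (permutation p = 0.704, adjusted 0.704). Without 1.2 and 3.3, r was 0.0519. For Elovl6 at 10 months r was -0.604 (permutation p = 0.0647, adjusted 0.0863) and rho -0.636 (permutation p = 0.0533, adjusted 0.0785), and r was -0.452 without the same pairs. These 4 relations, all two-sided, were chosen after the data were seen. The part of fat cells in the changes of the lipid genes was not tested.

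**Figure D3:**
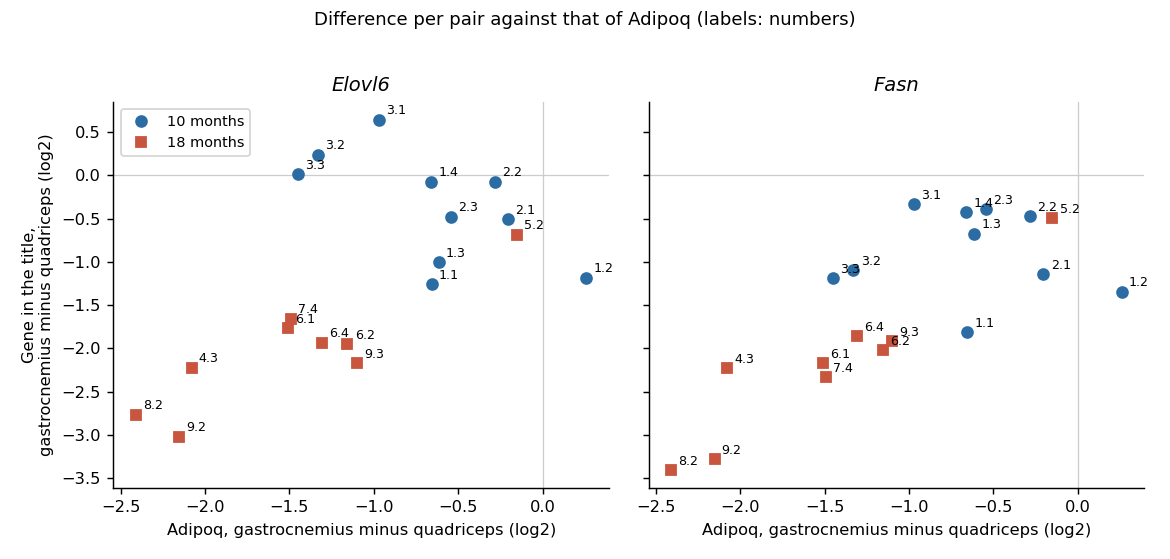
Gastrocnemius minus quadriceps difference (log2) of Elovl6 and of Fasn, per pair, against that of the fat cell gene Adipoq. Blue circles are the 10 pairs at 10 months and red squares the 9 pairs at 18 months, each with its number. At 18 months low values of both go together (r = 0.881 for Elovl6 and 0.939 for Fasn), and number 5.2 lies among the younger pairs. Without 5.2 and 8.2, r was 0.636 and 0.774. At 10 months r was -0.604 and -0.0493.

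The count of genes that passed was higher without number 5.2. Then 48 of 15100 genes were called and all 48 were lower (0.318% called, edgeR). They included 6 of 18 lipid synthesis genes, namely Elovl6, Fasn, Scd1, Thrsp, Acly and Acaca, and 7 of 12 adipocyte markers, namely Adrb3, Retn, Cfd, Cidec, Adipoq, Lipe and Plin1. Without 5.2 the Fasn change was -1.49 ± 0.218 (SE, edgeR, adjusted p = 0.0014) and the Elovl6 change -1.72 ± 0.222 (SE, edgeR, adjusted p = 0.000309). No other list among the 28 had a called member in that fit. Quadriceps 5.2 had the lowest Adipoq of the quadriceps libraries, 9.772 CPM, beside its high mitochondrial share and low total. Without 3.1, 1 of 15008 genes was called (0.00666%), again Elovl6. Without 3.2 and 5.2, which had the highest mitochondrial share, 43 were called (0.285%). DESeq2 called 10 genes from all pairs (0.0664%), among them Elovl6, Fasn and Thrsp, with Kcnab1 as the one higher gene. Without the filter on low counts, edgeR called 117 of 28093 genes (0.416%), but the adjusted p-values of that fit were far smaller for like changes (4.67e-26 for Elovl6, against 0.00744), for a cause that was not tested, and nothing is drawn from its count. What in quadriceps 5.2 moved the count was not tested.

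Other genes with small p-values in the same direction were Prkar2b, a regulatory subunit of protein kinase A found in fat and brain, and Slc1a5, a glutamine carrier. Their changes were -1.12 ± 0.228 and -0.60 ± 0.127 (SE), each with an edgeR adjusted p of 0.106. In both genes 8 of 9 pairs at 18 months lay below the median of 10 months, and the exception was 5.2.

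No gene had a difference that passed towards gastrocnemius. The smallest p belonged to Kcnab1, a beta subunit of voltage-gated potassium channels. In gastrocnemius it had 4.80, 14.9 and 17 CPM at 10 months and 13.8, 20.3 and 25.8 CPM at 18 months (lowest, median, highest). In quadriceps it had 5.05, 13.2 and 17.2 CPM at 10 months and 8.70, 14.7 and 20.2 CPM at 18 months. Every pair at 18 months, from 0.16 to 0.84, was above the median of 10 months, 0.09, and the ranges overlapped. The change was 0.43 ± 0.0966 (SE, edgeR, adjusted p = 0.114).

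Col11a2, a fibrillar collagen chain on the tendon and junction list, gave 0.41 ± 0.0992 (SE, edgeR, adjusted p = 0.185). It rose with age in gastrocnemius by 0.86 (edgeR, adjusted p = 0.0121) and was estimated at 0.49 in quadriceps (edgeR, adjusted p = 0.224). Tmem132b, a membrane protein, gave 0.36 ± 0.0822 (SE, edgeR, adjusted p = 0.135) and rose in gastrocnemius by 0.54 (edgeR, adjusted p = 0.0397). Its quadriceps estimate was 0.19 (edgeR, adjusted p = 0.583). Dkk3, a secreted protein of the dickkopf family, gave 0.52 ± 0.128 (SE, edgeR, adjusted p = 0.205) from a difference that favoured quadriceps at both ages, -1.58 and -1.06. Changes of the other named genes in this direction, Nhs, Tpx2, Pus3 and Fbxl4, were 0.34, 0.35, 0.24 and 0.16, none of which passed.

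Schwann cells wrap the motor and sensory axons inside a muscle, and their markers had the second lowest median of the 28 lists. All 13 were fitted below 0, with a median of -0.428, 8 at an unadjusted p under 0.05 and none called in the paired fit. Of all genes, 48.3% were fitted above 0 and 2.86% were lower at that p. Here too the markers can move together, so the 13 are not independent. The median was -0.33 without 2.2, whose gastrocnemius library had the highest summed level of these markers, and -0.276 with limma and quality weights, where 12 of 13 were below 0. None was at 0 counts in any library. The median ageing estimate was -0.342 in gastrocnemius and 0.122 in quadriceps. Mbp, a myelin protein, had 25.1, 31.9 and 47.7 CPM in gastrocnemius at 10 months and 21.6, 25.1 and 33.1 CPM at 18 months. In quadriceps it had 18.2, 20.2 and 26.2 CPM at 10 months and 18.9, 21.2 and 28.0 CPM at 18 months. Gastrocnemius was above quadriceps in 9 of 10 pairs at 10 months and in 7 of 9 at 18 months. The pairs ran from -0.01 to 1.3 at 10 months and from -0.15 to 0.65 at 18 months. Its change was -0.44 ± 0.153 (SE, edgeR, adjusted p = 0.768). S100b, a calcium-binding protein of Schwann cells, gave -0.67, and Pmp22, a peripheral myelin protein, -0.29. The summed Schwann cell markers in gastrocnemius ran from 74.23 to 194 CPM at 10 months, highest in 2.2, and from 76.39 to 126 CPM at 18 months. In quadriceps they ran from 66.4 to 102.2 CPM and from 86.36 to 112.4 CPM.

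**Figure D4:**
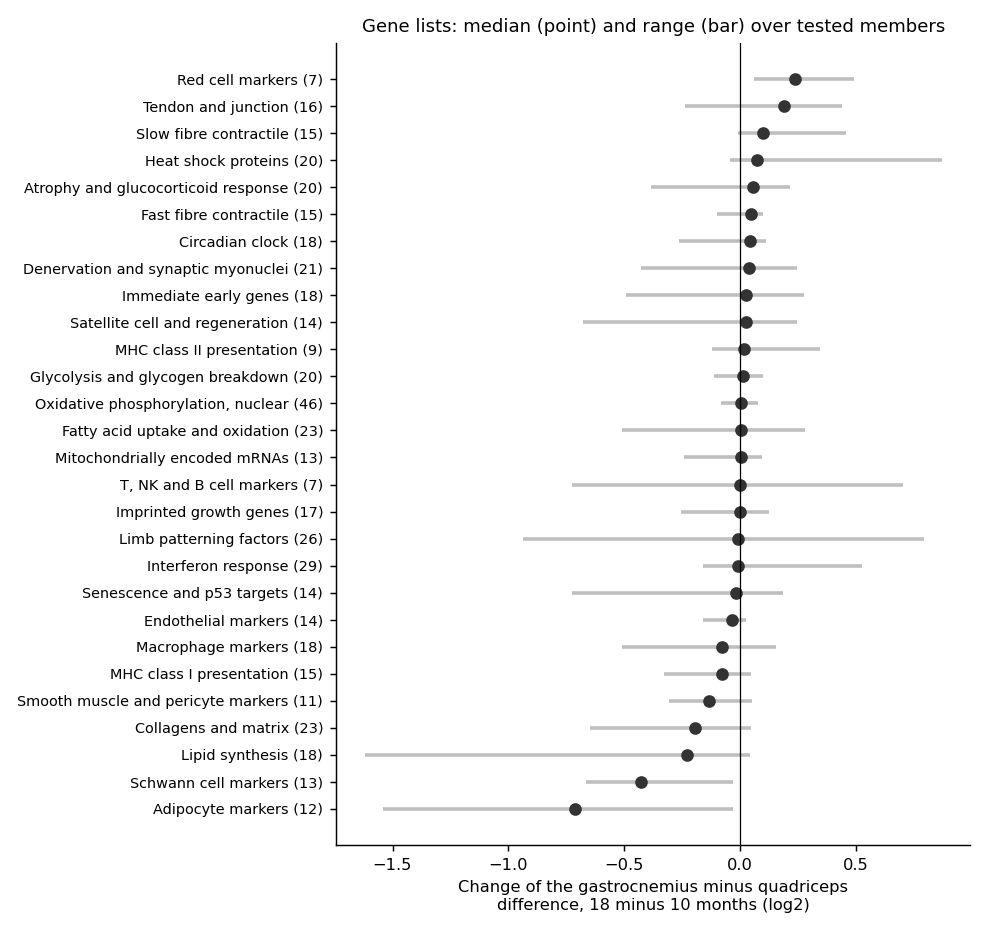
Change of the gastrocnemius minus quadriceps difference from 10 to 18 months (log2) for the 28 gene lists, with the number of genes tested in brackets. Points are medians and grey bars the range over tested members. The adipocyte and Schwann cell markers are lowest, at -0.711 and -0.428, with no member above 0.

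The remaining lists lay closer to 0. Of 23 collagen and matrix genes, 20 were fitted below 0, with a median of -0.196, 4 at an unadjusted p under 0.05 and none called. Without number 9.3 the median was -0.0848. Postn, a matrix protein made during repair, was lowest at -0.65. Smooth muscle and pericyte markers had a median of -0.134 over 11 genes, and -0.0785 without 1.3. Tendon and junction genes went the other way, with 13 of 16 above 0 and a median of 0.191 (0.118 without 2.2), and red cell markers had a median of 0.236 with all 7 above 0. The red cell median was -0.0205 without 2.3, 0.382 without 5.2 and 0.434 without 2.2, so its direction rested on 2.3. Red cell markers were at 1341 and 1164 CPM in gastrocnemius and quadriceps 6.1 and at 650 CPM in quadriceps 2.3, against no more than 307.9 CPM elsewhere. The other cell lists were nearer to 0, with medians of -0.0766 for macrophages, -0.0366 for endothelium, 0.0262 for satellite cells and 0.001 for lymphocytes. The macrophage median turned to 0.0251 without 4.3, and those of satellite cells and lymphocytes also changed sign when 1 number was left out.

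Genes of the muscle fibre itself gave no call either. The 15 slow fibre genes had a median of 0.1 with 14 above 0, and a median of 0.0166 without 1.3. Among them Pln, the inhibitor of the calcium pump of slow fibres, gave 0.46 ± 0.139 (SE, edgeR, adjusted p = 0.535). The myosin heavy chains Myh7, Myh2, Myh1 and Myh4, which mark the fibre types from slow to fastest, changed by 0.06 ± 0.168, -0.10 ± 0.103, -0.08 ± 0.0848 and 0.07 ± 0.0692 (SE), each with an edgeR adjusted p of 1. Ppargc1a, a regulator of mitochondrial biogenesis, was at 0.00 ± 0.0956 (SE). List medians were 0.0452 for fast fibre genes, 0.0117 for glycolysis, 0.00317 for nuclear oxidative phosphorylation, 0.00189 for mitochondrially encoded mRNAs and 0.0019 for fatty acid uptake and oxidation. Without 5.2 the first 4 were 0.089, 0.0498, 0.0455 and 0.106. Without 3.2, whose quadriceps library also had a high mitochondrial share, they were -0.0137, -0.0188, -0.0279 and -0.0773, so no direction is given for them. Angptl4, a secreted inhibitor of lipoprotein lipase on that last list, was at -0.51 ± 0.151 (SE, edgeR, adjusted p = 0.502).

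Heat shock proteins had a median of 0.0712 with 17 of 20 above 0, and atrophy genes 0.0562. Medians of the circadian, synaptic and immediate early lists were 0.0444, 0.04 and 0.0272. The interferon, MHC class I and MHC class II lists were at -0.00856, -0.0799 and 0.0147, and limb patterning, imprinted and senescence genes at -0.00778, -0.00271 and -0.0201. None of these lists had a called member. When 1 number was left out, the medians of the interferon, MHC class II, patterning, imprinted and senescence lists changed sign in at least 1 fit, and those of the other lists here kept theirs. Some of the latter came closer to 0, with 0.0179 for atrophy genes without 5.2, 0.00971 for immediate early genes and -0.0493 for MHC class I without 2.2, and 0.0377 for heat shock proteins and 0.0135 for synaptic genes without 6.1.

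Ageing itself was compared in each muscle over the same 38 libraries, without blocks. In gastrocnemius 25 genes rose (0.166%) and 8 fell (0.0532%), together 0.219% called, and in quadriceps 38 rose (0.252%) and 18 fell (0.12%), together 0.372% called. These counts were 149 and 216 without number 3.1, 14 in gastrocnemius without 1.2 and 15 in quadriceps without 1.4. Of the genes called from all libraries, 17 were called in both, all in the same direction, which is 51.5% of the gastrocnemius and 30.4% of the quadriceps calls. All 33 genes called in gastrocnemius had the same sign in quadriceps, and 53 of 56 called in quadriceps had the same sign in gastrocnemius. Both muscles came from the same numbers, and libraries of 1 number tended to deviate together (median correlation 0.196). The contrasts thus share noise, and their agreement is not a replication. The share of all genes with the same sign was not counted. The paired test called none of the 33 and 1 of the 56, Elovl6. In the paired fit 6 of the 33 and 9 of the 56 had an unadjusted p under 0.05. At that p 1.1% of all genes were higher and 2.86% lower. The median absolute change was 0.176 and 0.142, against 0.0612 over all genes. The 33 and the 56 were chosen by ageing estimates from the same libraries, which also enter the paired change. Larger values than over all genes can thus arise from that choice alone, and nothing is drawn from them.

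Amy1, an amylase gene, had the smallest p in both muscles, with a rise of 0.47 in gastrocnemius and 0.50 in quadriceps (edgeR, adjusted p = 0.000268 and 7.31e-05). Its paired change was -0.04 ± 0.0614 (SE, edgeR, adjusted p = 1). Sh2d4a, an SH2 adaptor gene, rose by 0.68 and 0.74 with a paired change of -0.06 ± 0.110 (SE). Pfkfb3, which makes an activator of glycolysis, rose by 0.85 and 0.96 with a paired change of -0.11 ± 0.102 (SE). The imprinted gene Nnat fell by 1.67 and 1.43 with a paired change of -0.25 ± 0.261 (SE). The Pfkfb3 call in quadriceps was lost without 1.4 (0.91, edgeR, adjusted p = 0.0515) and the Nnat call in gastrocnemius without 1.2 (-1.54, edgeR, adjusted p = 0.0505). For these 4 genes the difference between muscles was smaller than the change within each, and the paired edgeR adjusted p was 1.

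The difference between the muscles was large at both ages. At 10 months 2128 genes were higher and 1845 lower in gastrocnemius (26.4% called), and at 18 months 2069 and 1996 (27% called). Of these, 2794 were called at both ages, all in the same direction, which is 70.3% of the first and 68.7% of the second set. Without 2.2, 6053 genes were called at 10 months. The size per pair, as the root mean square of the log2 difference over the tested genes, was 0.496 ± 0.0517 (SD, n = 10) at 10 months and 0.483 ± 0.0461 (SD, n = 9) at 18 months (exact permutation p = 0.582, two-sided, adjusted 0.865 over 4 measures). Each pair was also projected on the mean difference of the 10-month pairs, leaving the pair itself out of that mean. This gave 0.842 ± 0.23 (SD, n = 10) and 0.901 ± 0.146 (SD, n = 9) times that difference (exact permutation p = 0.563, adjusted 0.865). The lowest 10-month pair was 2.2 at 0.255, with the next at 0.72, and the projection was not repeated without 2.2. The mitochondrial share was lower in gastrocnemius by similar amounts, -2.49 ± 2.12 (SD, n = 10) and -2.66 ± 2.46 (SD, n = 9) percentage points (exact permutation p = 0.865, adjusted 0.865). Total counts differed by 1.46 ± 3.65 (SD, n = 10) and 2.32 ± 5.03 M (SD, n = 9) (exact permutation p = 0.677, adjusted 0.865).

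**Figure D5:**
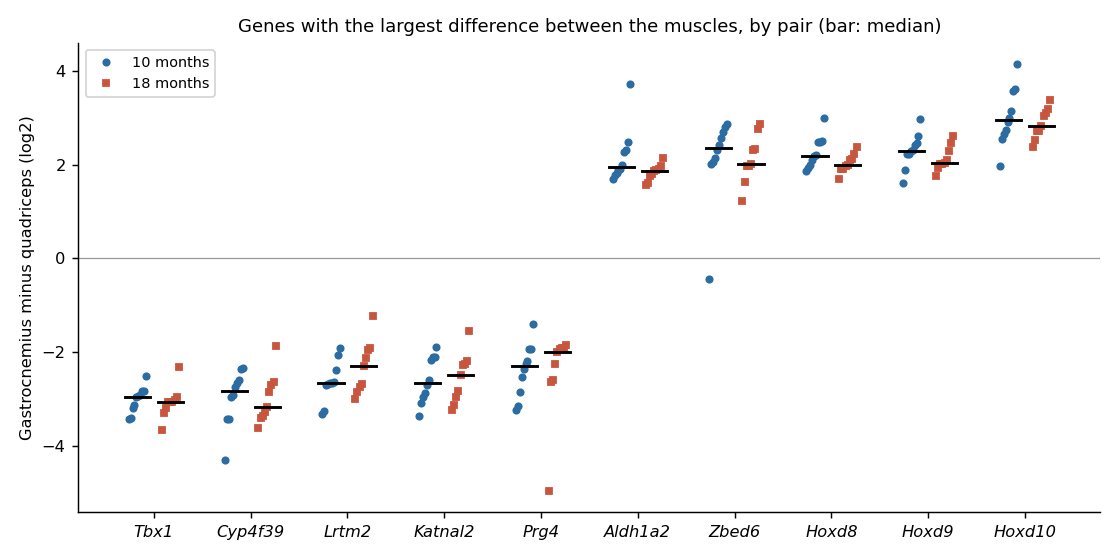
Gastrocnemius minus quadriceps difference (log2) per pair for the 5 genes per direction with the largest difference at 10 months among those called at both ages. Blue circles are the 10 pairs at 10 months, red squares the 9 pairs at 18 months and bars are medians. Every pair is on one side of 0 at both ages for 9 of the 10 genes, and for Zbed6 the pair 2.2 lies at -0.44.

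Among the genes that differed most between the muscles were factors of limb position. Hoxd8, Hoxd9 and Hoxd10, homeobox genes that pattern the limb along its length, were 2.26, 2.29 and 2.93 log2 units higher in gastrocnemius at 10 months and 2.03, 2.14 and 2.86 at 18 months. Hoxd10 had 5.13, 6.3 and 7.68 CPM in gastrocnemius and 0.296, 0.822 and 1.64 CPM in quadriceps at 10 months. At 18 months it had 5.66, 6.96 and 8.03 CPM and 0.625, 0.946 and 1.43 CPM. No gastrocnemius library overlapped a quadriceps library at either age. Aldh1a2, which makes retinoic acid, and Zbed6, a transcription factor derived from a transposon, were higher in gastrocnemius by 2.14 and 2.22 at 10 months and by 1.83 and 2.11 at 18 months.

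Tbx1, a T-box factor, was furthest towards quadriceps among the named genes, which average a log2 CPM of 1 or more and leave out predicted genes, at -3.02 and -3.06. It had 29.6, 38.5 and 74.2 CPM in quadriceps and 3.89, 4.73 and 8.16 CPM in gastrocnemius at 10 months, and 29.6, 35.5 and 46.7 CPM and 3.02, 4.25 and 5.98 CPM at 18 months. The muscles did not overlap at either age. Cyp4f39, a fatty acid hydroxylase, was at -2.94 and -2.96, Lrtm2 at -2.61 and -2.28, and Katnal2, a katanin-like protein, at -2.55 and -2.49. Prg4, the joint lubricant lubricin, was at -2.35 and -2.42, with 224 CPM in quadriceps 9.3. The paired change of these 10 genes lay between -0.30 for Aldh1a2 and 0.33 for Lrtm2, each with an edgeR adjusted p of 1.

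On the limb patterning list, changes ran from -0.94 for Meis2 to 0.80 for Tbx5, both at low level. Meis2, a homeobox cofactor, had the smallest p of the list, with a change of -0.94 ± 0.246 (SE, edgeR, adjusted p = 0.27). Its estimate moved from 0.30 at 10 months to -0.64 at 18 months. Tbx15, a T-box factor of fast fibres, moved by 0.14 ± 0.0522 (SE, edgeR, adjusted p = 0.915).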

How the data were processed

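The deposited table gives unnormalized read counts, as whole numbers, for each Entrez gene. The submitters' processing notes name STAR 2.5.2b and the build GRCm38.p5. No source used here names the counting program or its use of strand. Groups came from the titles. The 2 labelled samples without a column were not analysed here.

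Counts of the 38 libraries (29.06 to 45.02 M) were tested with the quasi-likelihood test of edgeR 4.0.16 in R 4.3.3, with TMM factors and filterByExpr (minimum count 10, minimum total 15). The model had 19 blocks for the numbers, a muscle term and a muscle term for 18 months, whose test is the change of the difference. Ageing within a muscle came from a fit of the 4 groups without blocks. A gene was called where its p, adjusted over all genes after Benjamini and Hochberg, was under 0.05. Differences per pair are log2 CPM values (prior count 0.5). SE values come from the F statistic. Library measures were compared by exact permutation. Alternatives used DESeq2 1.42.0, limma 3.58.1, RLE factors, no filter, no blocks, exercised pairs and pairs left out. Lists are described by counts and medians, without a test. The fit was tested on simulated data for the change of the difference (15050 genes). The changed genes were drawn only from those whose average log2 CPM, as edgeR computes it, was 1 or more. The fit called 50 of 50 genes at each of -1.5, -1, 1 and 1.5 log2, and 16 genes that had not been changed. In the real pairs Elovl6 passed at -1.62, while Fasn and Pck1, each at -1.3, did not. The simulated counts thus do not show that a change of such a size would be called in the real pairs.

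The comparison, the 28 lists and the named genes were chosen with earlier results of these data known. Named were: called genes whose log2 CPM averaged 1 or more, filled to 8 per direction by smallest p; the 8 smallest p for ageing per muscle; 13 fixed genes; up to 2 members per list with an unadjusted p under 0.05; and the 5 largest muscle differences per direction. Other members of the lipid, adipocyte, Schwann cell and patterning lists were chosen after their values were seen. Elovl6 has a mean log2 CPM of 0.89 and is named as a fixed gene. Entrez identifiers were matched to GENCODE M21, and promoters to RefSeq (GRCm38.p6, 9 of 10 genes looked up matched).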

Additional observations from a re-analysis of the deposited data

Results flagged for a closer look

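Elovl6 was flagged because its change with age differed between the muscles, by -1.62 on the log2 scale in the paired edgeR fit (adjusted p = 0.00744).

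Within the 9 or 10 pairs of an age, 16 of 144 groups of values had a lowest or highest pair far from the others by Dixon's criterion, where about 7.2 would be flagged by chance at 1 in 20. Number 5.2 accounted for 5 of the 16. At 18 months it had the highest difference for Pck1 (0.139, next pair -1.90), Prkar2b (0.673, next -0.89) and Thrsp (-0.409, next -1.24). It had the lowest for Amy1 (-0.642, next -0.40) and for the mitochondrial share (-8.97 percentage points, next -3.18).

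Number 2.2 accounted for 3 flags at 10 months. It was lowest in the projection on the 10-month difference (0.255, next 0.72), for Zbed6 (-0.438, next 2.02) and for Ppargc1a (-0.359, next 0.08). Number 3.1 was flagged for Col11a2 (-0.141) and Aldh1a2 (3.72) at 10 months. At 10 months Kcnab1 was lowest in 3.2 (-0.474) and Myh1 in 2.1 (-1.16). At 18 months Spock2 was lowest in 8.2 (-0.562), Myh2 in 7.4 (-0.350) and Prg4 in 9.3 (-4.95), while Tbc1d1 was highest in 9.3 (0.895).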

How the results depend on the processing

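The count of genes whose difference changed was small and moved with the setting. It was 117 without the low-count filter (98 lower), 10 with DESeq2, 2 with limma and quality weights, and 43 without numbers 3.2 and 5.2 (chosen after seeing the data). It was 0 with limma on the differences (634 genes at an unadjusted p under 0.05) and 0 with exercised pairs in the edgeR fit (479 genes). Leaving out 1 number gave 1 to 48, with 48 without 5.2, 6 without 3.3, 3 without 6.2 and 2 without 3.2 or 9.3. Elovl6 was among the calls in every setting with a call. The cause of these differences between settings was not tested.

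The labels do not say what a number marks, so the pairing was checked in the data. Of 19 numbers, 17 had a correlation over 0.1 between the deviations of their libraries (median 0.196, lowest 0.0871), and 27 of 38 libraries matched their own number best. This is a hint from the data, not the design. Without the replicate block, 0 genes were called for the change (edgeR, 235 at an unadjusted p under 0.05), 1652 for the muscle difference at 10 months and 1685 at 18 months.

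The muscle difference at 10 months had 6218 calls with quality weights and 3259 to 6053 when 1 number was left out, with 6053 without 2.2. Ageing in gastrocnemius had 66 calls with DESeq2, 152 without 3.1 and 2.2, and 14 to 149 without 1 number (149 without 3.1). Ageing in quadriceps had 124 with DESeq2, 298 without 3.1 and 2.2, 86 without 3.2 and 5.2, and 15 to 216 without 1 number (216 without 3.1, 106 without 5.2). The difference in mitochondrial share between ages turned from -0.176 to 0.0566 without 3.1.

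Of the named results, 34 values in 8 genes changed sign, all of paired changes near 0 that were not called. Without 3.1 and 2.2 the sign turned for Amy1 (0.0023), Tbx1 (0.00066), Cyp4f39 (0.131) and Ppargc1a (-0.0503). With quality weights it turned for Myh7 (-0.0064) and Prg4 (0.118), and without 3.2 and 5.2 for Prg4 (0.0107). Over the fits without 1 number, the change ran from -0.0582 to 0.0034 for Amy1, -0.0316 to 0.14 for Myh7, -0.227 to 0.0034 for Hoxd10, -0.141 to 0.0248 for Tbx1, -0.0752 to 0.166 for Katnal2, -0.151 to 0.219 for Prg4, -0.171 to 0.0539 for Cyp4f39 and -0.0668 to 0.0356 for Ppargc1a. Elovl6 had from 14 to 624 counts per library, so its low levels carry a wide counting error.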
